A study of Mus musculus with 20 samples.

Results

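The cathepsins and the subunits of the vacuolar ATPase were followed in 20 whole-lung RNA sequencing libraries from female C57Bl6 mice. Members were taken by name, as every gene whose symbol begins with Cts or with Atp6v0 or Atp6v1, with Ctsk and Atp6v0d2 set aside and a minimum of 10 summed counts over all libraries. That gave 35 of the 24054 genes in the table, 14 cathepsins and 21 V-ATPase genes, out of 44 that matched by symbol alone. Of these, 33 had enough counts for the test across 16193 genes. Ctsg, the neutrophil granule cathepsin, had 13 counts in all and Atp6v1g3, a subunit isoform of kidney, had 46, and both were left untested. The remaining symbols stayed below the minimum: Atp6v1e2, a testis isoform, had 3 counts, Ctsll3 had 1, and Cts3, Cts6, Cts7, Ctsj, Ctsm, Ctsq and Ctsr, which belong to the placental cathepsin cluster of rodents, had 0.

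The 4 groups held 5 libraries each, which the labels call biological replicates without naming animals. WT_saline and WT_HDM are wild-type mice that received saline or house dust mite extract (HDM), an allergen given into the nose daily for 14 days. KO_saline and KO_HDM are mice of the same strain labelled ALOX15 KO, given saline or HDM. Neither the allele nor the way it was made is given in the sources used here. Alox15 encodes a lipoxygenase acting on polyunsaturated fatty acids, and the knockout-labelled libraries held more of its RNA than the wild-type libraries. Its level in CPM (counts scaled to library size) was 4.58 ± 4.00 (SD, n = 5) in WT_saline, 18.6 ± 8.53 in WT_HDM, 40.8 ± 2.45 in KO_saline and 41.1 ± 4.07 in KO_HDM, and the knockout-labelled libraries lay above the wild-type libraries without overlap under either treatment. Under saline the log2 difference was 3.15 ± 0.45 (SE; edgeR adjusted p = 0.000583; exact two-sided permutation p = 0.007937, the smallest that 252 arrangements allow). Under HDM it was 1.15 ± 0.41 (edgeR adjusted p = 0.107; exact permutation p = 0.007937). With HDM it rose in the wild type by 2.01 ± 0.44 (adjusted p = 0.00241; exact permutation p = 0.01587) and gave 0.01 ± 0.40 in the knockout-labelled mice (adjusted p = 0.987; exact permutation p = 0.9524). Whether the table's Alox15 transcript lies outside a deleted part is not given, so every genotype comparison here is one between labels. Library totals ran from 12573113 to 23305673 expected counts, so 1 CPM stood for more than 12 counts in each library. The defining lung transcripts of type 2 alveolar cells were abundant throughout, summing to between 11934 and 27324 CPM over 10 markers. The libraries WT_saline 2 and 4, WT_HDM 2 and 4 and KO_HDM 5 carried adipocyte RNA (Adipoq, the adiponectin gene, at 50 CPM or more). Skeletal muscle markers, 8 genes, summed to 3536 CPM in WT_HDM 2, where the median of its group was 16.9 CPM, and 4 of 6 tested were called higher with HDM in the wild type and 4 of 6 lower in KO_HDM than in WT_HDM. The liver markers, 8 genes, summed to between 37.0 and 118 CPM in KO_HDM against at most 6.29 CPM in any other library. Results below were computed with all libraries, and the part of the liver and muscle RNA in them was not tested.

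Cathepsins are the proteases of the endosome and lysosome. Most are cysteine proteases of the papain fold, cathepsins D and E are aspartic proteases, and cathepsins A and G are serine proteases. They break down engulfed protein, and in antigen-presenting cells cathepsin S cuts the invariant chain from MHC class II molecules. The vacuolar ATPase (V-ATPase) supplies the acid that these enzymes need. Its V1 sector in the cytosol hydrolyses ATP and turns a rotor that drives protons through the V0 sector in the membrane, and many subunits come as a widely expressed gene and one or more relatives restricted to epithelia, neurons or macrophages. Macrophages are rich in both gene families, and in the lung type 2 alveolar cells also use acid organelles, the lamellar bodies that store surfactant.

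Many lysosomal genes share a short promoter element, the CLEAR motif, with TCACGTGA at its core, which is bound by TFEB and its relatives. RefSeq promoters (GRCm38.p6, 250 bases before to 50 after a transcript start) were found for 25 of the 35 members, 29 promoters in all. TCACGTGA, which is its own reverse complement and so reads the same on both strands, was present in 5 of these 29 promoters, belonging to Ctsa, Ctsd, Atp6v1a, Atp6v0d1 and Atp6v0e, against 0.974% of all 32851 promoters. The shorter CACGTG, which every TCACGTGA contains, was in 8 of 29, against 7.15% of all. The extended CLEAR palindrome, with 1 further G and C at the ends, was in 0 of 29, against 0.326%. A STAT-type site, TTC and GAA with 4 bases between them, was in 2 of 29, against 6.95%, and other spacings were not searched. Both of these are also palindromes. These are matches of letters in a window of 300 bases and nothing about binding was measured. The 3 promoters below carry TCACGTGA upstream of a RefSeq transcript start, in genes that HDM raised in both genotypes. By the gene positions of GENCODE M21, another annotation, all 3 windows lie inside the annotated genes. Each is written 5′ to 3′ on the gene's strand with the motif in capitals. The Ctsd window lies at chr7:142387889-142387956 on the minus strand, with the motif's first base at -99 from the start. For Ctsa it is chr2:164833730-164833772 on the plus strand with the motif at -13, and for Atp6v1a chr16:44139354-44139421 on the minus strand with the motif at -132.
Ctsd: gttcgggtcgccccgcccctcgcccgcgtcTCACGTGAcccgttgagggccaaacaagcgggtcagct
Ctsa: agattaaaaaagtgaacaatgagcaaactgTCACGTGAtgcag
Atp6v1a: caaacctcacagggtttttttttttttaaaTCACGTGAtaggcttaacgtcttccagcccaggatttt
The same Ctsa promoter held a second match that began at 5. The match in Atp6v0d1 began at -4 and that in Atp6v0e at 3, at or after the start site. Atp6v0d1 and Atp6v0e were not called in any comparison, so the motif was found both in members that rose and in members that were not called.

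Levels between genes can only be set side by side per length. Per kilobase of merged exon (GENCODE M21), the aspartic protease gene Ctsd led in WT_saline with 217 ± 37.9 CPM per kb (SD, n = 5), followed by Ctss with 127 ± 26.5, Ctsb with 80.5 ± 16.6 and the V1 stalk subunit Atp6v1g1 with 77.1 ± 4.36. Ctsb and Atp6v1g1 did not differ beyond their spread. After HDM the order changed at the top. In WT_HDM Ctss stood at 618 ± 119 CPM per kb and Ctsd at 406 ± 76.1, and in KO_HDM they stood at 1312 ± 207 and 672 ± 114. Among V-ATPase genes Atp6v0a4, Atp6v1b1 and Atp6v1g2 were scarce, at 1.43 ± 0.292, 1.39 ± 0.635 and 0.962 ± 0.117 CPM per kb in WT_saline. The CPM of the 14 cathepsins was also summed and written in percent. It came to 0.203 ± 0.0262% in WT_saline, 0.403 ± 0.0656% in WT_HDM, 0.235 ± 0.0281% in KO_saline and 0.630 ± 0.0998% in KO_HDM. The 21 V-ATPase genes came to 0.116 ± 0.00613%, 0.143 ± 0.0107%, 0.128 ± 0.00915% and 0.156 ± 0.0154% in the same order. The means of the HDM groups lay above those of the saline groups for both families, and the step was larger for the cathepsins.

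HDM raised most of the abundant cathepsins and, by smaller steps, about as many V-ATPase genes in wild-type lung. Of 33 tested members, 17 rose and 2 fell at an adjusted p under 0.05, where 30.1% of all tested genes were called, 13.6% higher and 16.5% lower. The cathepsins rose in 8 of 13 tested and fell in 1, with a median log2 fold change of 0.75. V-ATPase genes rose in 9 of 20 and fell in 1, with a median of 0.23, beside a median of -0.02 over all tested genes. In 13 members every HDM library lay above every saline library, as in 5.93% of all genes, and in 0 every HDM library lay below, as in 5.64% of all genes. In bulk tissue a change in the number of cells of a type and a change in RNA per cell cannot be told apart, and this holds for every comparison here. Of the macrophage markers, 11 of 17 rose and 1, Marco, fell, with 0 of the 17 at 0 in all libraries, and their summed level ranged from 3099 to 4385 CPM in WT_saline and from 3871 to 6810 CPM in WT_HDM. Other lists moved as well. Mucous and goblet cell markers rose (9 of 10), from sums of 195 to 1514 CPM to sums of 3915 to 10362 CPM, as did 5 of 10 dendritic cell markers. Erythroid markers fell (8 of 9), and so did 9 of 12 T and NK cytotoxic markers, from sums of 68.9 to 243 CPM to sums of 47.1 to 78.0 CPM. The part of these lists in the members' changes was not tested.

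In the knockout-labelled mice HDM raised 16 of 33 members, 14 of which also rose in the wild type, and lowered 4, where 51.9% of all genes were called, 26.2% higher and 25.7% lower. Cathepsins rose in 9 of 13 and fell in 1 (median 0.59), and V-ATPase genes rose in 7 of 20 and fell in 3 (median 0.19), beside a median of 0.02 over all genes. In 15 members the HDM libraries lay wholly above the saline libraries and in 4 wholly below, against 22.1% and 21.8% of all genes. The share of members called, 60.6%, was thus near that of all genes in this comparison, with more rises than falls among the members. The 17 macrophage markers summed to between 4116 and 5993 CPM in KO_saline and between 6330 and 9934 CPM in KO_HDM, with 15 called higher and 1 lower. Erythroid markers fell (9 of 9), as did 5 of 12 T and NK markers, while mucous markers (10 of 10) and liver markers (8 of 8) rose. The 10 type 2 alveolar markers gave 4 falls and 1 rise, and dendritic cell markers gave 4 rises and 2 falls. The mucous sums went from between 76.6 and 438 CPM in KO_saline to between 3067 and 9758 CPM in KO_HDM. The part of these lists was not tested. Across the 2 HDM comparisons, 2 members fell in both, and none was called in opposite directions. The other calls were 3 rises in the wild type alone and 2 rises and 2 falls in the knockout-labelled mice alone, which by itself does not show a difference between genotypes. The overlap of calls was not counted over all genes, so it is not shown to be particular to the members.

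**Figure D1:**
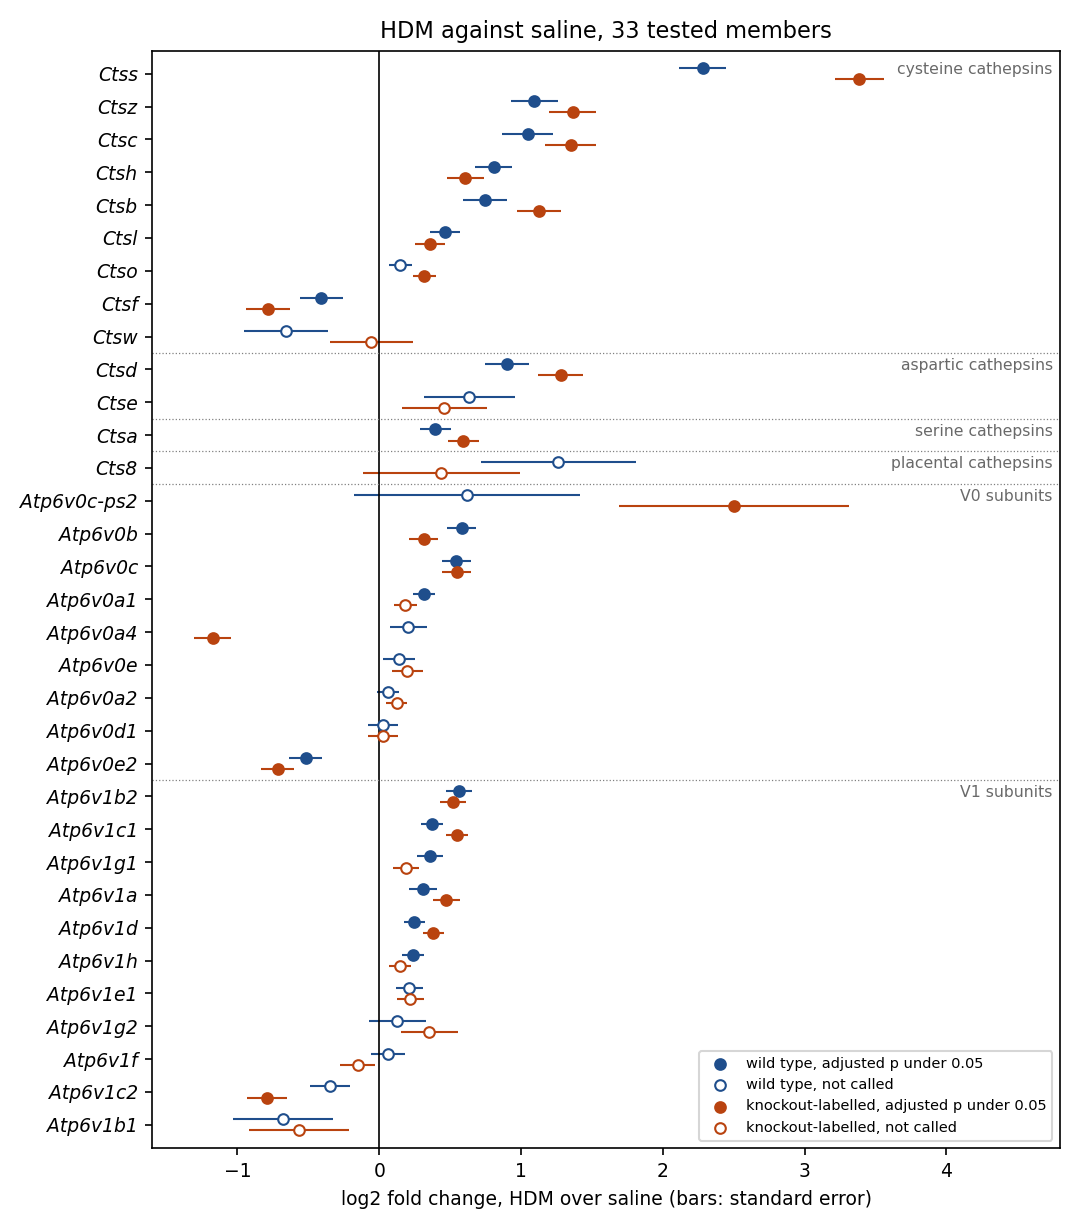
Log2 fold changes of HDM over saline (x axis) for the 33 tested members (y axis, grouped by role) in wild-type (blue) and knockout-labelled (orange) lung; bars are standard errors and filled points passed an adjusted p of 0.05. Ctss has the largest rise in both genotypes, with the error bar of Atp6v0c-ps2 reaching that of Ctss in the knockout-labelled mice, and Atp6v0a4 lies right of 0 in the wild type and left of it in the knockout-labelled mice.

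Cathepsin S (Ctss), the endosomal cysteine protease of antigen-presenting cells, had the largest rise. Its CPM in replicates 1 to 5 was 179, 125, 164, 225 and 169 in WT_saline and 1108, 809, 842, 739.6 and 694 in WT_HDM. In the knockout-labelled libraries it was 128, 169.7, 193, 184 and 177 under saline and 1447, 1831, 1758, 2213 and 1656 under HDM. The saline groups overlapped each other, every HDM library was above every saline library, and every KO_HDM library was above every WT_HDM library. The rise was 2.28 ± 0.17 on the log2 scale in the wild type (SE; edgeR adjusted p = 2.59e-08), a 4.86-fold change, and 3.39 ± 0.17 in the knockout-labelled mice (adjusted p = 5.40e-10), a 10.5-fold change. Ctss is the neighbour of Ctsk on chromosome 3, where the annotation of GRCm38 places them at 95526786 to 95556403 and 95499256 to 95509362 on the plus strand. Ctsk, the collagen-degrading cathepsin of osteoclasts that the name rule set aside, rose by 2.97 ± 0.21 and 2.15 ± 0.21, more in the wild type than in the knockout-labelled mice, although that difference did not pass (interaction -0.81 ± 0.28, adjusted p = 0.163).

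Cathepsins Z and C followed. Ctsz encodes a carboxypeptidase, and Ctsc encodes dipeptidyl peptidase I, which activates the granule serine proteases of neutrophils, mast cells and cytotoxic lymphocytes. Ctsz stood at 70.1, 80.2, 91.4, 125 and 95.6 CPM in WT_saline and 267, 224, 181, 158 and 157 in WT_HDM. Its levels in KO_saline were 90.9, 111, 121, 104 and 106 CPM and in KO_HDM 249.8, 265, 283, 356 and 219. No HDM library reached down to a saline library of its genotype, and the rises were 1.09 ± 0.17 (adjusted p = 0.000101) and 1.36 ± 0.17 (adjusted p = 2.39e-06). Ctsc had 188, 139, 203, 197 and 205 CPM in WT_saline, where replicate 2 was low, and 515, 423, 346, 277 and 364 CPM in WT_HDM. It had 191, 215, 274, 205 and 257 CPM in KO_saline and 474, 602, 654, 774 and 406 CPM in KO_HDM. Its saline and HDM groups did not overlap in either genotype, and it rose by 1.05 ± 0.18 (adjusted p = 0.000278) and 1.35 ± 0.18 (adjusted p = 5.66e-06).

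Ctsd encodes the main aspartic endopeptidase of lysosomes. It gave 407, 491, 463, 640.1 and 551 CPM in WT_saline and 1241, 974, 765, 930.1 and 859 in WT_HDM. KO_saline libraries held 504, 701, 758, 590.0 and 703 CPM and KO_HDM libraries 1647, 1548, 1542, 1955 and 1205. Saline and HDM groups were apart in both genotypes, with rises of 0.90 ± 0.16 (adjusted p = 0.000320) and 1.28 ± 0.16 (adjusted p = 2.47e-06). Cathepsin H (Ctsh) is an aminopeptidase that also takes part in processing surfactant protein B in type 2 alveolar cells. Ctsh gave 183, 185, 208, 204 and 246 CPM in WT_saline, 434, 340.1, 354, 293 and 375 in WT_HDM, 213, 279, 325, 227 and 269 in KO_saline and 400.3, 412, 411, 463 and 312 in KO_HDM. The wild-type groups were apart, and in the knockout-labelled mice the lowest HDM library, replicate 5, lay under the highest saline library, replicate 3. Its rises were 0.81 ± 0.13 (adjusted p = 0.000168) and 0.61 ± 0.13 (adjusted p = 0.000644), the reverse order of size to the cathepsins above, and this difference did not pass (interaction -0.20 ± 0.18, adjusted p = 0.645).

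The remaining risers among the cathepsins were Ctsb, a cysteine endopeptidase and dipeptidase, with 0.75 ± 0.16 and 1.13 ± 0.16 in the wild type and the knockout-labelled mice, Ctsl, an endopeptidase, with 0.47 ± 0.11 and 0.36 ± 0.11, and Ctsa, a serine carboxypeptidase that protects beta-galactosidase and neuraminidase, with 0.40 ± 0.11 and 0.59 ± 0.11. Ctso, a widely expressed cysteine cathepsin, rose in the knockout-labelled mice, by 0.32 ± 0.08 (adjusted p = 0.00266), against 0.15 ± 0.08 in the wild type (adjusted p = 0.171). Its interaction did not pass (adjusted p = 0.503). The wild-type rise of Ctsl was 0.41 with an adjusted p of 0.0684 when the 5 adipose-rich libraries were left out, and that of the knockout-labelled mice was 0.24 with an adjusted p of 0.0703 without KO_HDM 4.

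Cathepsin F (Ctsf) was the cathepsin that fell. Its levels were 14.1, 19.9, 17.9, 16.9 and 19.8 CPM in WT_saline and 11.2, 12.2, 9.48, 15.6 and 18.02 in WT_HDM, and 17.9, 21.8, 20.3, 18.7 and 19.5 CPM in KO_saline and 10.1, 10.5, 11.7, 9.87 and 14.9 in KO_HDM. The wild-type groups overlapped through WT_HDM 4 and 5, whereas all KO_HDM libraries were below all KO_saline libraries. The log2 change was -0.78 ± 0.15 in the knockout-labelled mice (adjusted p = 0.000283) and -0.41 ± 0.15 in the wild type (adjusted p = 0.0482). The wild-type call sat at the threshold: it was lost when any 1 of 16 of the 20 libraries was left out, with the change between -0.43 and -0.28 in those fits. It was also lost with DESeq2 size factors, upper quartile scaling, either other filter on low counts, the compared libraries alone, without the adipose-rich libraries and without Rn45s, a ribosomal RNA gene, with adjusted p between 0.0529 and 0.137.

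The other cathepsins were not called for HDM. Ctsw, a cathepsin of cytotoxic lymphocytes, ranged from 2.84 to 13.1 CPM over all libraries, with log2 changes of -0.66 ± 0.30 and -0.06 ± 0.29. Its highest value of each saline group was in WT_saline 4 and KO_saline 4, which also had the highest summed level of the 12 T and NK cytotoxic markers in their groups, 243 and 126 CPM. Both were highest in KO_HDM 2 within KO_HDM, whereas within WT_HDM Ctsw was highest in WT_HDM 2 and the marker sum in WT_HDM 1. The placental gene Cts8 stayed at or under 0.855 CPM, where RSEM divides reads among related genes. Ctsg reached at most 0.138 CPM.

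**Figure D2:**
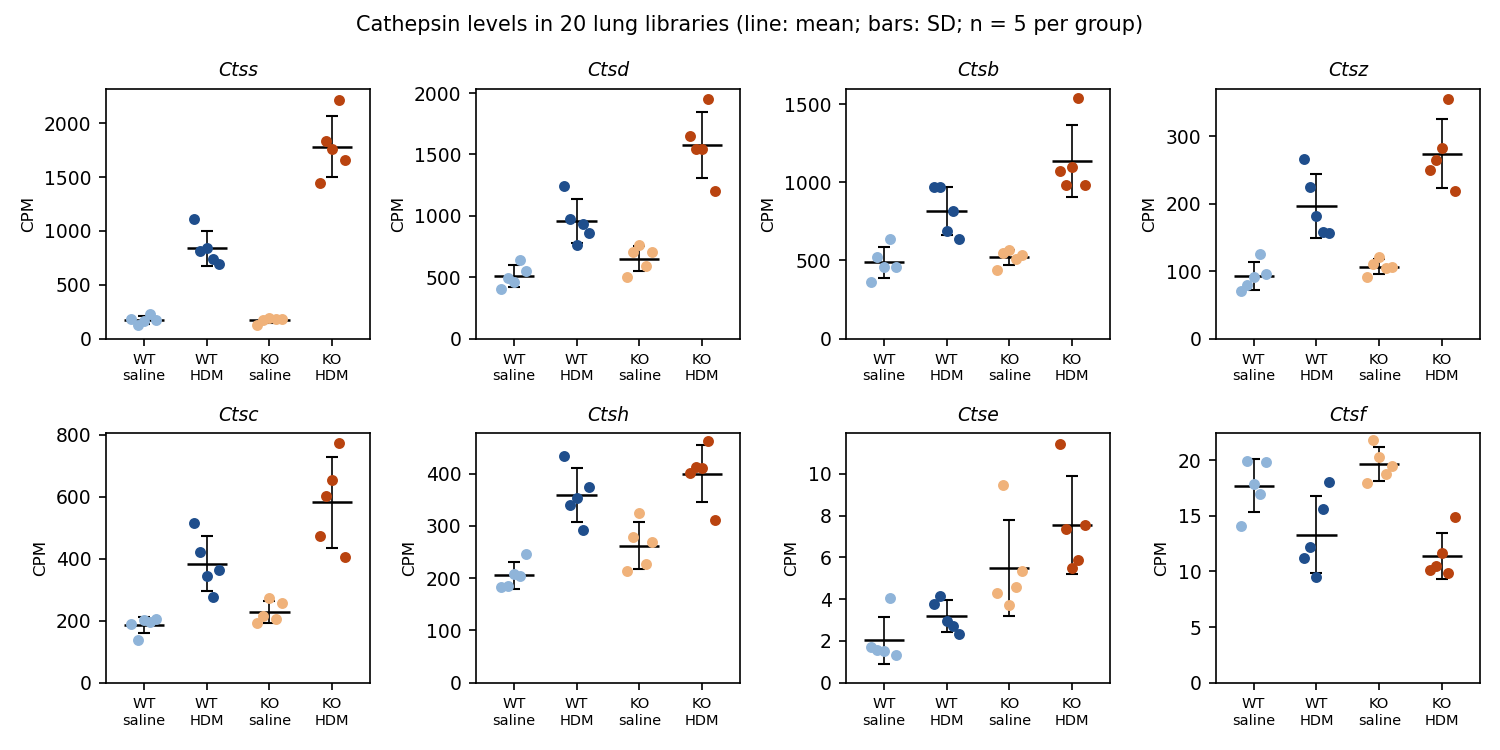
CPM (y axis, from 0) of 8 cathepsins in each of the 20 libraries by group (x axis); points are libraries, lines are means and bars are SD. In the Ctss panel the KO_HDM libraries, from 1447 to 2213 CPM, sit above all WT_HDM libraries, and in the Ctse panel the KO means are the higher ones under both treatments, with WT_saline 4 inside the KO_saline range.

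The V-ATPase genes that rose in both genotypes were Atp6v1b2, Atp6v1a, Atp6v1c1, Atp6v1d, Atp6v0c and Atp6v0b, and Atp6v0e2 fell in both. In the V1 sector, the B2 subunit gene Atp6v1b2 rose by 0.56 ± 0.09 and 0.52 ± 0.09 in the wild type and the knockout-labelled mice. The catalytic A subunit gene Atp6v1a rose by 0.31 ± 0.10 and 0.47 ± 0.10, and Atp6v1c1, whose product links V1 to V0, by 0.37 ± 0.08 and 0.55 ± 0.08. The rotor subunit gene Atp6v1d rose by 0.25 ± 0.07 and 0.38 ± 0.07. Of the stator subunits, Atp6v1g1 rose in the wild type by 0.36 ± 0.09, as did Atp6v1h by 0.24 ± 0.08, and neither was called in the knockout-labelled mice (0.19 ± 0.09 and 0.15 ± 0.08). Atp6v1e1 missed the threshold in both (adjusted p = 0.107 and 0.0657), with changes of 0.21 ± 0.10 and 0.22 ± 0.10. Atp6v1f, between 27.9 and 46.9 CPM, and the neuronal isoform Atp6v1g2, between 1.69 and 3.95 CPM, were not called. With the compared libraries alone the wild-type calls of Atp6v1d and Atp6v1h were lost (adjusted p = 0.0652 and 0.0674). Without WT_saline 2 the wild-type Atp6v1h change was 0.19 with an adjusted p of 0.0631, and without the adipose-rich libraries those of Atp6v1h and Atp6v1a were 0.22 and 0.29, with adjusted p of 0.111 and 0.0773.

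In the V0 sector, the proteolipid ring genes Atp6v0c and Atp6v0b rose by 0.54 ± 0.10 and 0.58 ± 0.10 in the wild type and by 0.55 ± 0.10 and 0.31 ± 0.10 in the knockout-labelled mice. The last of these lost its call without KO_HDM 1 (adjusted p = 0.0677) or KO_HDM 4 (adjusted p = 0.0895). Of the a subunits, which carry the proton path, Atp6v0a1 rose in the wild type by 0.32 ± 0.08 (adjusted p = 0.00552) and gave 0.18 ± 0.08 in the knockout-labelled mice (adjusted p = 0.0593). Its wild-type call was lost, at an adjusted p of 0.05001, with the compared libraries alone. Atp6v0a2, the isoform of the Golgi and endosomes, was not called, with 0.06 ± 0.07 and 0.12 ± 0.07. Atp6v0d1, which joins the rotor to the ring, gave 0.03 ± 0.10 and 0.03 ± 0.10, and Atp6v0e gave 0.14 ± 0.11 and 0.20 ± 0.11, also not called. Outside the members, the macrophage and osteoclast partners of these subunits moved further. Atp6v0d2, the relative of Atp6v0d1, rose by 2.18 ± 0.21 and 2.21 ± 0.21, and Tcirg1, which encodes the a3 subunit, rose by 1.05 ± 0.12 and 1.18 ± 0.12.

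Atp6v0a4 encodes the a4 subunit of acid-secreting epithelia. Its CPM was 5.78, 7.31, 8.88, 5.52 and 8.11 in WT_saline and 8.40, 8.38, 9.48, 7.55 and 7.28 in WT_HDM, 7.52, 8.55, 9.42, 9.09 and 9.98 in KO_saline and 3.63, 3.75, 3.94, 3.86 and 4.53 in KO_HDM. The 5 KO_HDM libraries were the lowest of all 20 and lay close together, and the other 3 groups overlapped. The change with HDM was -1.18 ± 0.13 in the knockout-labelled mice (adjusted p = 8.80e-07), against 0.21 ± 0.13 in the wild type (adjusted p = 0.245). RSEM gave this gene fractional counts, so part of its reads was shared with other loci.

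Atp6v1c2 encodes an epithelial relative of Atp6v1c1 that is made in kidney and lung. It held 45.6, 41.1, 44.5, 36.4 and 51.2 CPM in WT_saline and 34.4, 24.1, 36.6, 27.2 and 49.96 in WT_HDM, and 46.3, 54.8, 53.1, 51.6 and 56.9 CPM in KO_saline and 31.1, 31.7, 29.5, 28.3 and 30.99 in KO_HDM. The wild-type groups overlapped, with WT_HDM 3 and 5 inside the saline range, and the knockout-labelled groups were apart. It fell in the knockout-labelled mice by 0.79 ± 0.14 (adjusted p = 0.000123) and gave -0.35 ± 0.14 in the wild type (adjusted p = 0.0704). Its interaction was -0.45 ± 0.20 (adjusted p = 0.278), so a difference between genotypes was not shown. The 10 type 2 alveolar markers summed to between 12841 and 21439.9 CPM in WT_saline, 11934 and 25087 in WT_HDM, 19157 and 27324 in KO_saline and 13130.1 and 20456 in KO_HDM. The part of these cells in the Atp6v1c2 values was not tested.

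Atp6v0e2, a relative of Atp6v0e that is rich in brain, fell in both genotypes. It had 14.3, 23.8, 19.4, 16.6 and 20.1 CPM in WT_saline and 11.1, 14.3, 12.04, 13.3 and 15.002 in WT_HDM, and 17.3, 20.9, 20.2, 19.998 and 22.5 CPM in KO_saline and 11.6, 12.1, 13.1, 11.6 and 12.9 in KO_HDM. WT_saline 1 lay within the WT_HDM range, and the knockout-labelled groups were apart. The changes were -0.52 ± 0.12 (adjusted p = 0.00271) and -0.72 ± 0.12 (adjusted p = 5.41e-05).

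Atp6v1b1, the B1 isoform of intercalated cells and ionocytes, ranged from 2.11 to 9.90 CPM and was not called, at -0.68 ± 0.35 and -0.57 ± 0.35. Its highest wild-type values, 9.90 and 7.78 CPM in WT_saline 2 and 4, were in adipose-rich libraries. The adipose-rich WT_HDM 2 and 4 were instead the lowest of WT_HDM, at 2.82 and 2.95 CPM, and WT_HDM 5 was the highest at 5.99 CPM. Foxi1, the defining factor of ionocytes, was at most 0.155 CPM in any library. The 2 genes of that list with enough counts for the test rose in both genotypes: Slc26a4, an anion exchanger, by 4.51 ± 0.41 and 4.00 ± 0.40, and Cftr, the chloride channel, by 0.90 ± 0.20 and 1.04 ± 0.20.

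Atp6v0c-ps2 is annotated as a processed pseudogene of Atp6v0c, and RSEM shares reads between such copies, so neither count is certain alone. It was listed at 6.66, 1.61, 1.54, 2.30 and 10.2 CPM in WT_saline, 14.95, 12.03, 0, 3.98 and 3.22 in WT_HDM, 4.45, 6.72, 2.73, 1.35 and 4.74 in KO_saline and 11.4, 15.4, 19.3, 57.3 and 10.02 in KO_HDM. KO_HDM 4 stood far above the rest, though the other KO_HDM libraries were also above KO_saline. The log2 change in the knockout-labelled mice was 2.50 ± 0.81 (adjusted p = 0.0155), and without KO_HDM 4 it was 1.77 with an adjusted p of 0.0731. In the wild type it was 0.62 ± 0.79 (adjusted p = 0.597).

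**Figure D3:**
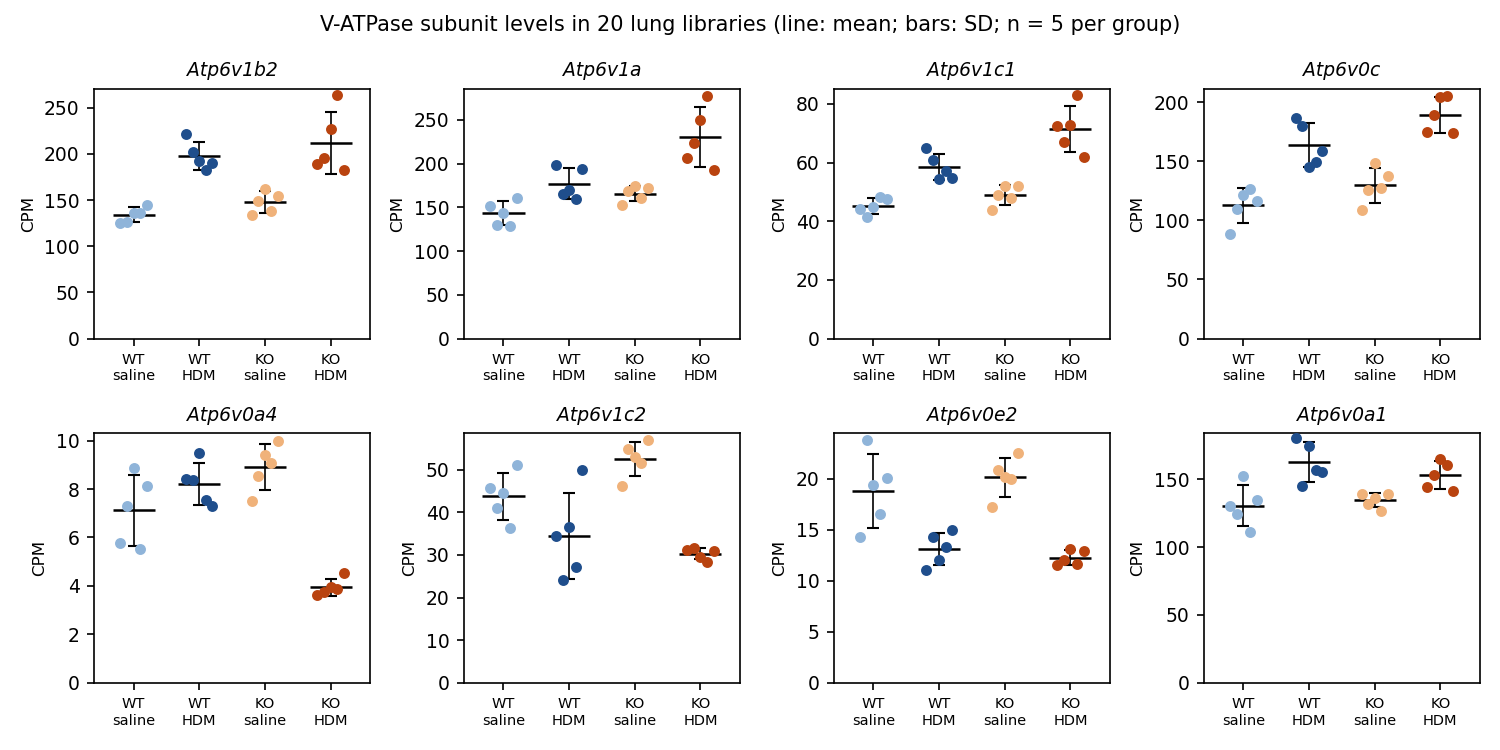
CPM (y axis, from 0) of 8 V-ATPase genes in each library by group (x axis); points are libraries, lines are means and bars are SD. The top row shows widely expressed subunits, whose group means are higher under HDM in each genotype, and in the bottom row the KO_HDM libraries of Atp6v0a4, between 3.63 and 4.53 CPM, lie below all others.

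Pairs of relatives were also set against each other within each library, as log2 of the CPM of the restricted over the widely expressed gene, with no test. Such a ratio is free of the library's scaling but keeps the ratio of the 2 genes' lengths, so it says nothing of which gene is the more abundant, and only its difference between groups is free of length. Atp6v1c2 over Atp6v1c1 was -0.05 ± 0.20 (SD, n = 5) in WT_saline, -0.81 ± 0.47 in WT_HDM, 0.10 ± 0.05 in KO_saline and -1.23 ± 0.21 in KO_HDM. The knockout-labelled groups did not overlap and the wild-type groups did. Atp6v0e2 over Atp6v0e was -1.23 ± 0.35, -1.87 ± 0.32, -1.23 ± 0.10 and -2.13 ± 0.25 in that order of groups, again apart only in the knockout-labelled mice. Atp6v0a4 over Atp6v0a1 was -4.19 ± 0.19, -4.29 ± 0.14, -3.91 ± 0.17 and -5.24 ± 0.18. KO_HDM was below KO_saline and below WT_HDM without overlap, and the wild-type groups overlapped. Atp6v1b1 over Atp6v1b2 was -4.56 ± 0.69, -5.72 ± 0.48, -5.08 ± 0.74 and -6.07 ± 0.65, with overlap in each comparison. The ratios of Atp6v0a2 to Atp6v0a1 and of Atp6v1g2 to Atp6v1g1 moved by at most 0.26 between the groups compared and overlapped throughout. Ctse over Ctsd, the pair of aspartic cathepsins, was -8.00 ± 0.50, -8.19 ± 0.27, -6.93 ± 0.51 and -7.72 ± 0.51, with overlap in each comparison.

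Under saline, 1 of 33 tested members, Ctse, was called between knockout-labelled and wild-type lung, where 0.908% of all genes were called, 0.593% higher and 0.315% lower. In 0 members the groups were apart, against 1.91% of genes above and 1.14% below. Cathepsin E (Ctse) is an aspartic protease of endosomes, known from stomach and antigen-presenting cells. It was at 1.71, 1.55, 1.54, 4.05 and 1.32 CPM in WT_saline and 4.31, 9.49, 3.74, 4.56 and 5.33 in KO_saline. Except for WT_saline 4, all wild-type libraries were under 2 CPM, and KO_saline 2 stood above its group. The difference was 1.42 ± 0.32 (adjusted p = 0.0314). Its adjusted p lay between 0.0703 and 0.145 without any 1 of WT_saline 1, 2, 3 or 5 or KO_saline 2 or 5, with the difference down to 1.12 without KO_saline 2, and was 0.142 with the compared libraries alone. The other 32 members differed by between -0.38 and 0.35 on the log2 scale, and none passed. Erythroid markers were higher in the knockout-labelled libraries, 9 of 9 called, with sums of 2512 to 6073 CPM in WT_saline and 9494 to 19702 CPM in KO_saline, and their part in the Ctse value was not tested.

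Under HDM, several cathepsins were higher in knockout-labelled than in wild-type lung. Of 33 members, 7 were higher and 1 lower, where 6.67% of all genes were called, 4.79% higher and 1.88% lower. These were 5 cathepsins, Ctse, Ctss, Ctsd, Ctsc and Ctsa, and the V1 genes Atp6v1a and Atp6v1c1, with Atp6v0a4 lower. In 3 members KO_HDM lay wholly above WT_HDM and in 1 wholly below, against 4.8% and 2.21% of all genes. The median over the cathepsins was 0.42 and over the V-ATPase genes 0.04, beside -0.01 over all genes. This comparison uses the same HDM libraries as the ones above.

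Ctse was at 3.77, 4.16, 2.95, 2.74 and 2.33 CPM in WT_HDM and 11.4, 7.36, 5.50, 5.90 and 7.55 in KO_HDM, without overlap, a difference of 1.24 ± 0.31 (adjusted p = 0.0198). Ctss, with the values given above, differed by 1.09 ± 0.16 (adjusted p = 0.000391), a 2.12-fold difference, and Ctsd by 0.73 ± 0.16 (adjusted p = 0.00747), where KO_HDM 5 lay below WT_HDM 1. Atp6v0a4 was lower by 1.06 on the log2 scale, a change of -1.06 ± 0.13 (adjusted p = 7.05e-05). The smaller differences were 0.60 ± 0.18 for Ctsc (adjusted p = 0.0472), 0.42 ± 0.11 for Ctsa (adjusted p = 0.0276), 0.38 ± 0.10 for Atp6v1a (adjusted p = 0.0220) and 0.29 ± 0.08 for Atp6v1c1 (adjusted p = 0.0301). Ctsb was at 1135 ± 231 CPM in KO_HDM and 817 ± 154 in WT_HDM without overlap, but missed the threshold (0.47 ± 0.16, adjusted p = 0.0769), as did Ctsz (0.48 ± 0.16, adjusted p = 0.0907).

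Several of these genotype calls under HDM were lost when single libraries were left out. Without WT_HDM 4 the count of members called was 3 of 33, without KO_HDM 3 or KO_HDM 4 it was 4, and without WT_HDM 3 or WT_HDM 5 it was 5. Leaving out a library leaves less data for every gene, and the share of all genes called in these fits is not given here. The counts therefore do not show that the members depend on single libraries more than other genes do. Atp6v1a lost its call without WT_HDM 4, KO_HDM 3 or KO_HDM 4, Ctsa without WT_HDM 3, 4 or 5 or KO_HDM 2, 3 or 4, and Atp6v1c1 without WT_HDM 3, 4 or 5 or KO_HDM 1, 3 or 4. Ctsc lost it without any 1 of 13 libraries (WT_saline 3 and 5, WT_HDM 2 to 5, KO_saline 1, 2, 4 and 5 and KO_HDM 2 to 4), with a difference down to 0.46 and an adjusted p of 0.163 without KO_HDM 4. Ctse had an adjusted p of 0.0525 without WT_HDM 4 and 0.0528 without KO_HDM 1. Ctss, Ctsd and Atp6v0a4 passed in all 20 of these fits. With the compared libraries alone Atp6v1a, Atp6v1c1, Ctsa and Ctsc missed the threshold, with adjusted p between 0.0576 and 0.104. Ctsc also missed it with limma voom (0.0572) and upper quartile scaling (0.0521), and Atp6v1a without the adipose-rich libraries (0.0522). Macrophage markers were also higher, 11 of 17 called, as were 6 of 9 tested neutrophil markers, whose sums were 194 to 372 CPM in WT_HDM and 351 to 644 CPM in KO_HDM. Erythroid markers, 9 of 9 called, summed to between 1234 and 2012 CPM in WT_HDM and between 2871 and 4912 CPM in KO_HDM. The part of none of these in the members' differences was tested.

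The interaction tests whether the HDM effect differed between the 2 genotype labels. Among the 33 members, 2 passed, where 1.24% of all genes were called, 1% with a positive and 0.235% with a negative difference. The Ctss rise was larger in the knockout-labelled mice by 1.10 ± 0.22 (adjusted p = 0.0197), and Atp6v0a4 fell there and not in the wild type, a difference of -1.38 ± 0.18 (adjusted p = 0.00109). The Ctss value was 1.04 with an adjusted p of 0.0618 without the adipose-rich libraries and 0.98 with 0.0547 without KO_HDM 4, while Atp6v0a4 passed in every alternative run. Of the 17 macrophage markers tested, 2 also passed and 15 did not, and 4 of the 17 estimates were negative. Those that passed were Emr1, which encodes the F4/80 antigen, with 1.61 ± 0.22, and Fcgr1, a high-affinity Fc receptor, with 1.81 ± 0.35. The other 31 members did not pass, and their estimates ran from -0.83 for Cts8 to 1.89 ± 1.12 for Atp6v0c-ps2.

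Members varied together within groups. WT_HDM 1 had the highest CPM of its group for 20 of 33 members, KO_HDM 4 for 20 and KO_saline 3 for 18. KO_saline 1 had the lowest for 24 and KO_HDM 5 for 22. The summed macrophage markers were likewise highest in WT_HDM 1, KO_saline 3 and KO_HDM 4, and lowest in KO_saline 1 and KO_HDM 5. Other lists shared parts of this order. KO_HDM 5 was also lowest for the type 2 alveolar, dendritic and T and NK sums, where KO_HDM 2 was highest. KO_saline 3 was highest for the type 2 alveolar sum, and WT_HDM 1 for the dendritic and T and NK sums. Lyz2 alone averaged 2939 CPM in WT_saline, where the macrophage sums ran from 3099 to 4385 CPM. The part of these cells was not tested, and no such counts were made over all genes. In WT_saline no library was the highest for more than 13 members.

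**Figure D4:**
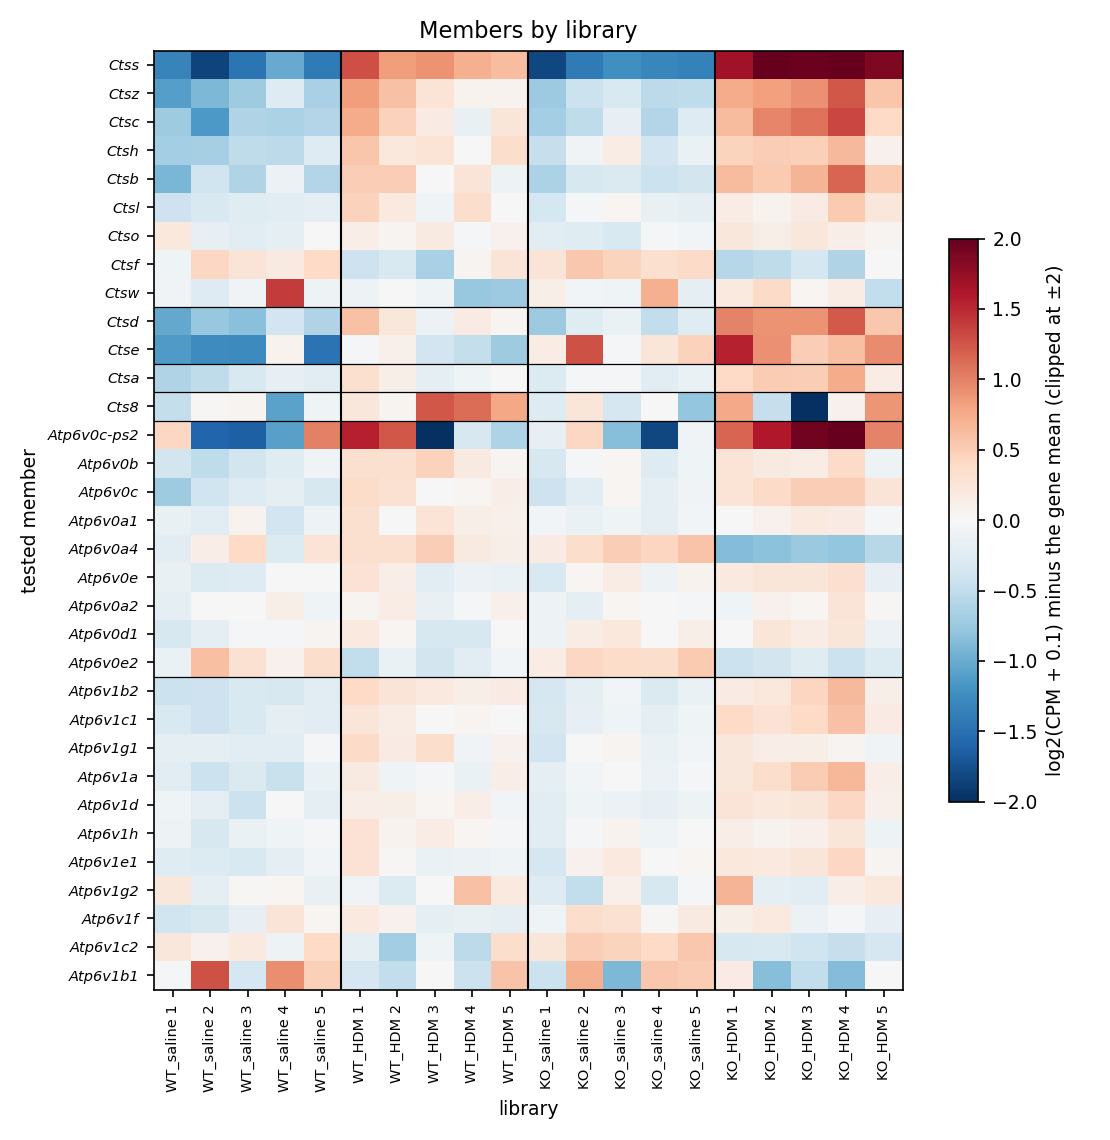
Heat map of the 33 tested members (rows, by role) in the 20 libraries (columns, by group), coloured by log2(CPM + 0.1) minus the gene's mean over all libraries. Ctss, Ctsz, Ctsc, Ctsd and Ctsb are deepest red in KO_HDM, Atp6v0a4 is blue in all 5 KO_HDM libraries and faintly so in WT_saline 1 and 4, and WT_HDM 1 and KO_HDM 4 are the columns with the highest mean colour value in their groups.

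Genes that work with the members were taken from lists made for this purpose. Of 50 other lysosomal enzymes and membrane proteins, 20 rose and 5 fell with HDM in the wild type and 32 rose and 6 fell in the knockout-labelled mice. These calls were 50% and 76% of the list, against 30.1% and 51.9% of all tested genes. The largest changes in the wild type were 1.49 ± 0.35 for Acp5, a tartrate-resistant acid phosphatase, 1.23 ± 0.15 for Psap, the saposin precursor, 1.16 ± 0.25 for Cd68, a macrophage lysosomal membrane protein that is also in the macrophage list, and 1.07 ± 0.14 for Gla, alpha-galactosidase A. Under HDM, 17 were higher in the knockout-labelled mice and none lower, with Slc11a1, a phagosomal metal transporter, at 1.22 ± 0.23. That was 34% of the list, against 6.67% of all genes called.

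The V-ATPase partners outside the name rule, 12 genes, gave 3 rises and 1 fall in the wild type and 6 rises in the knockout-labelled mice. These calls were 33.3% and 50% of the list, near the 30.1% and 51.9% of all genes called. Besides Tcirg1, Atp6ap2, an accessory subunit, rose by 0.62 ± 0.09 and 1.13 ± 0.10, and the assembly factor gene Vma21 rose by 0.83 ± 0.09 in the knockout-labelled mice with an interaction of 0.60 ± 0.13 (adjusted p = 0.0272). Dmxl2, of the complex that reassembles V1 with V0, rose there by 1.06 ± 0.15. Of the 8 transcription factors and regulators of lysosomal genes, 6 rose in the wild type and 5 in the knockout-labelled mice. Those rises were 75% and 62.5% of the list, against 13.6% and 26.2% of all genes called higher. The list also held Zkscan3, Flcn, Fnip1 and Fnip2, so its counts are not counts of activators of lysosomal genes alone. Tfec, a relative of TFEB found in macrophages, rose by 2.11 ± 0.22 and 2.38 ± 0.22, Mitf by 1.17 ± 0.10 and 1.47 ± 0.10, and Tfeb itself by 0.55 ± 0.13 and 0.37 ± 0.13.

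Genes listed as inhibitors of cysteine cathepsins, or as relatives of such inhibitors, moved in both directions. The list also held Spink5, Serpinb6a and Cst8, so its counts are not counts of cysteine cathepsin inhibitors alone. Of 16 listed, 7 had enough counts, and 1 rose and 2 fell in the wild type, with 2 and 3 in the knockout-labelled mice. The calls were 42.9% and 71.4% of those tested, against 30.1% and 51.9% of all genes. Cstb, the cytosolic stefin B, rose by 0.87 ± 0.17 and 1.13 ± 0.17, whereas Cst3, the secreted cystatin C, changed by -0.37 ± 0.13 and -0.32 ± 0.13. Cst8, a cystatin relative, fell furthest, with -3.49 ± 0.48 and -4.07 ± 0.49. Of the 10 genes that sort enzymes to the lysosome, Gnptab, the phosphotransferase that starts the mannose 6-phosphate tag, rose by 0.53 ± 0.08 and 0.65 ± 0.08, and its partner subunit Gnptg changed by -0.39 ± 0.10 and -0.61 ± 0.10. In all, 1 of the 10 rose and 1 fell in the wild type, and 3 rose and 2 fell in the knockout-labelled mice. At 20% and 50% called, these genes were not above the 30.1% and 51.9% of all genes.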

How the data were processed

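RNA sequencing gave 20 whole-lung libraries, 5 in each of 4 groups. Per the labels' protocols, RNA was selected with oligo-dT and libraries keep the strand; removal of ribosomal RNA is also mentioned. Per the submitters' processing notes the authors used Bowtie2 2.1.0 and RSEM 1.2.15 and named genome build hg38, a human build, although the table holds mouse symbols, so the build used is not known. The deposited values are the authors' RSEM expected counts, without normalization. RSEM divides reads among similar genes, which leaves fractional counts. Atp6v0c, Atp6v0c-ps2, Atp6v0a4, Cts8, Ctsa and Ctsb had such counts, so their values are uncertain one by one. The size of the shared part is not known.

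Counts were rounded. filterByExpr by group kept 16193 of 24054 genes, TMM factors scaled the libraries, and edgeR 4.0.16 (R 4.3.3) fitted group means over all 20 libraries (16 residual degrees of freedom). Its robust quasi-likelihood F test gave 5 comparisons, adjusted by Benjamini-Hochberg over all genes tested. Rose, fell and called mean an adjusted p under 0.05; ± after a log2 change is its standard error, and after CPM the SD. Alox15 was also compared by exact two-sided permutation of log2 CPM (prior count 2). The script was tested on simulated counts.

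Values in every library are given for Ctss, Ctsz, Ctsc, Ctsd, Ctsh, Ctsf, Ctse, Atp6v0a4, Atp6v0e2, Atp6v1c2 and Atp6v0c-ps2, by a rule: the called members with the largest rise and fall, up to 5 each per HDM comparison and up to 3 each in the others. Of each other list up to 4 called genes per comparison are named by size; Atp6v0d2, Ctsk and Tcirg1 are given beside their relatives. Members and lists were chosen with earlier results of these data known. Promoters come from RefSeq (GRCm38.p6), gene positions and exon lengths from GENCODE M21; neither is the authors' annotation. Alternatives were DESeq2 1.42.0, limma 3.58.1 voom, DESeq2 size factors, upper quartile scaling, 2 other filters, the compared libraries alone, a replicate block, fits without adipose-rich libraries or without Rn45s, adjusted p under 0.01, and leaving out each library.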

Additional observations from a re-analysis of the deposited data

Results flagged for a closer look

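In all, 4 of the values given for single libraries stood apart from the other 4 of their group by Dixon's test for 5 values, out of 44 groups tested, where chance flags about 1 in 20. Atp6v0c-ps2 was at 57.34 CPM in KO_HDM 4, against 10.02 to 19.26 CPM in the other KO_HDM libraries. Ctsc was at 139.1 CPM in WT_saline 2, against 188.4 to 204.5 CPM. Ctse, the endosomal aspartic protease gene, stood apart in both saline groups, at 4.049 CPM in WT_saline 4 (the others 1.319 to 1.713) and at 9.488 CPM in KO_saline 2 (the others 3.74 to 5.333).

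The effect of HDM differed between the genotype labels for 2 members by edgeR's test of the interaction. The difference, knockout-labelled minus wild type, was -1.381 on the log2 scale for Atp6v0a4, the a4 subunit of epithelial pumps, with an adjusted p of 0.001085, and 1.104 for Ctss with an adjusted p of 0.01967.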

How the results depend on the processing

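The 50 calls of single members were refitted under 1548 alternative values: 1451 kept direction and call, 97 lost the call and 0 reversed. A call was lost under at least 1 alternative for 17 of the 50, and 33 lost none. For HDM against saline the number of members called stayed between 17 and 21 in the wild type and between 17 and 24 in the knockout-labelled mice over fits without 1 library. Between genotypes under saline it was 1, and 0 with the compared libraries alone and at adjusted p under 0.01, with 0 to 1 over fits without 1 library. Under HDM it was 8, and 4 with the compared libraries alone, 5 with a replicate block and 3 at adjusted p under 0.01, with 3 to 9 over fits without 1 library. The interaction count was 2, and 1 without the adipose-rich libraries or at adjusted p under 0.01, with 1 to 2 over fits without 1 library. The interaction's fit on the compared libraries is the one reported. For these counts the share of all genes called in the same fit is not given here. The replicate numbers do not pair the libraries: of 30 same-numbered pairs, 17 had a correlation of deviations over 0.1 (range -0.457 to 0.506) and 8 correlated best with their own number. With the block Ctsa, Ctsc and Atp6v1c1 missed the threshold between genotypes under HDM, with adjusted p of 0.0543, 0.0843 and 0.0511. The Alox15 change with HDM in the knockout-labelled mice ran from -0.0692 to 0.0856 over fits without 1 library, changing sign in 8 of 20. Its genotype difference under HDM ran from 0.94 to 1.37, and passed without WT_saline 1 or 2 (adjusted p = 0.0462 and 0.0453). With a prior count of 0.5 no difference between groups in a ratio of relatives moved by more than its SD. Leaving out 1 of 5 libraries cannot move a group mean that far, so those fits do not test the ratios by this limit. Depth limits the scarce members: Ctsg and Atp6v1g3 had too few counts for the test.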
